A study of Mus musculus with 3 samples.

Results

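The 40 genes described here act in the uptake, oxidation and storage of fatty acids. They were chosen by name from the 39179 genes of the deposited table, and all 40 were found in it. Cells carrying an eGFP reporter for contactin 2 (Cntn2, an adhesion gene that marks Purkinje cells of the heart), transduced by lentivirus with mCherry under the promoter of alpha myosin heavy chain (Myh6, aMHC), were differentiated from a mouse embryonic stem cell line. Sodium nitroprusside, a nitric oxide donor, was added on day 4 in every population, and cells were sorted by fluorescence on day 25. GFP denotes cells positive for Cntn2:eGFP and dim for aMHC:mCherry, MHC denotes cells positive for aMHC:mCherry, and NEG denotes cells negative for both reporters. Each population is 1 RNA library from 1 engineered line, so differences between populations are without replicates and are given with no p-value. The sort gates are defined by reporters and not by a cell type.

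Heart muscle takes up fatty acids from lipoproteins and from albumin, binds them inside the cell and activates them to acyl-CoA. Carnitine carries the acyl group into the mitochondrion, where beta-oxidation shortens it and passes electrons to the respiratory chain. Surplus fatty acid is stored as triglyceride in lipid droplets coated by perilipins. The PPAR nuclear receptors with their PGC-1 coactivators control many of these genes, and the adult heart draws most of its energy from this pathway.

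The values are read counts divided by a size factor, called values below. Libraries held between 47289405 and 52826956 recovered reads, of which the 40 genes took 0.303% in GFP, 0.289% in MHC and 0.203% in NEG. A gene counted as higher or lower when log2(value + 1) differed by at least 1, that is 2-fold, and the larger value was 20 or more, which ranks sizes and tests nothing. Intervals are exact 95% Clopper-Pearson intervals of the read ratio and cover counting error only, and stand in parentheses after a fold. The labels were set against marker genes. Heart muscle markers were high in MHC, with a summed value over 10 genes of 16736 (GFP), 315628 (MHC) and 10254 (NEG). Mesothelial and epicardial markers summed to 158561 (GFP), 5694 (MHC) and 5566 (NEG) over 8 genes, and all 8 were higher in GFP than in either other library. Chondrocyte and osteoblast markers summed to 10192 (GFP), 453241 (MHC) and 1340600 (NEG). Mesothelial signal was thus highest in GFP, heart muscle signal in MHC and skeletal matrix signal in NEG. Smooth muscle markers summed to 18221 (GFP), 74965 (MHC) and 65888 (NEG) over 7 genes, of which 6 were lower in GFP than in MHC. Fibroblast markers summed to 1350520 (GFP), 5248850 (MHC) and 5268290 (NEG) over 8 genes, of which 3 were higher and 5 lower in GFP than in MHC. MHC thus held signal of several lists besides heart muscle. Summed macrophage markers were 10065 (GFP), 2157 (MHC) and 1839 (NEG) over 8 genes, and the pan-leukocyte gene Ptprc stood at 10.1 (GFP), 4.05 (MHC) and 3.39 (NEG). Cd14 alone gave 7405 (GFP), 881 (MHC) and 798 (NEG) of the macrophage sums. Itgam of the same list went the other way, with 262 (GFP), 400 (MHC) and 427 (NEG). Adipoq, the adiponectin gene that defines fat cells, was at 7.31 (GFP), 3.04 (MHC) and 4.52 (NEG). Another macrophage gene, Cd68, had 1220.3 (GFP), 503 (MHC) and 252 (NEG), and 6 of 7 measured macrophage markers were higher in GFP than in either other library. Of these 6, Emr1, Aif1 and Mrc1 were under 20 in MHC and NEG and passed the minimum only through GFP. Any call for them had to be a higher one. The endothelial gene Cdh5 was at 5.48 (GFP), 9.12 (MHC) and 9.04 (NEG). Ptprc, Adipoq and Cdh5 were thus low in every library, but other genes of these lists were not all low. The 8 endothelial markers summed to 955 (GFP), 2039.99 (MHC) and 1630.1 (NEG), and of 5 measured between GFP and MHC, 2 were higher and 2 lower in GFP. The 10 adipocyte markers summed to 756 (GFP), 1035 (MHC) and 539.97 (NEG), and of 6 measured, 1 was higher and 2 were lower in GFP. In these endothelial and adipocyte lists, Pecam1, Plin1 and Pparg were under 20 in GFP and could be called only lower there. Cidec was under 20 in MHC and NEG and could be called only higher in GFP.

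Several members known from muscle, among them Cpt1b, Fabp3 and Plin5, were low in GFP and high in MHC, while the binding protein gene Fabp5, the acyl-CoA synthetase genes Acsl4 and Acsl5 and the droplet coat gene Plin2 were high in GFP. Between GFP and MHC, 4 of 40 members were higher in GFP and 12 were lower. Among all 20879 genes measured in that pair, 15.6% were higher and 16.4% lower (31.9% in either direction). The members' shares were 10% and 30% (40% in either direction). The share lower in GFP was thus above the background and the share higher was below it. Of the members lower in GFP, Fabp3, Cpt1b, Ucp3 and Plin4 are uncertain because another gene overlaps each, so the excess rests in part on them. With overlapped genes left out, the members' share lower exceeded the 17.3% of all genes by a smaller margin. The members' share higher stayed below the 16% of all genes in that setting. The median log2 ratio of GFP over MHC was -0.64 over the members and 0.01 over all measured genes. All 40 members were measured in each pair, although Ucp3 and Plin5, both under 20 in GFP, passed the minimum only through MHC or NEG. Any call for them against GFP therefore had to be a lower one.

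Against the double negative cells, GFP was higher for 5 members and lower for 10, which is 12.5% and 25%. The background was 14.1% higher and 15% lower over 20814 genes (29.1% in either direction), and the members' median log2 ratio was -0.02 beside 0.02 for all genes. With libraries scaled to total reads, the split became 7 higher and 7 lower of 40, beside 17.2% higher and 13% lower of all genes. MHC was higher than NEG for 10 members and lower for 1 (Fabp5). Those are 25% and 2.5% of the members, against 5.35% and 5.21% of 20572 genes (10.6% in either direction). The median log2 ratio of MHC over NEG was 0.47, and -0.01 over all genes. The 3 comparisons share libraries and are not independent of each other. By order of level, 9 of the 40 members (22.5%) were highest in GFP, 28 (70%) in MHC and 3 (7.5%) in NEG. Of 21302 genes with a value of 20 or more in any library, GFP was highest for 41.8%, MHC for 31.2% and NEG for 27%.

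**Figure D1:**
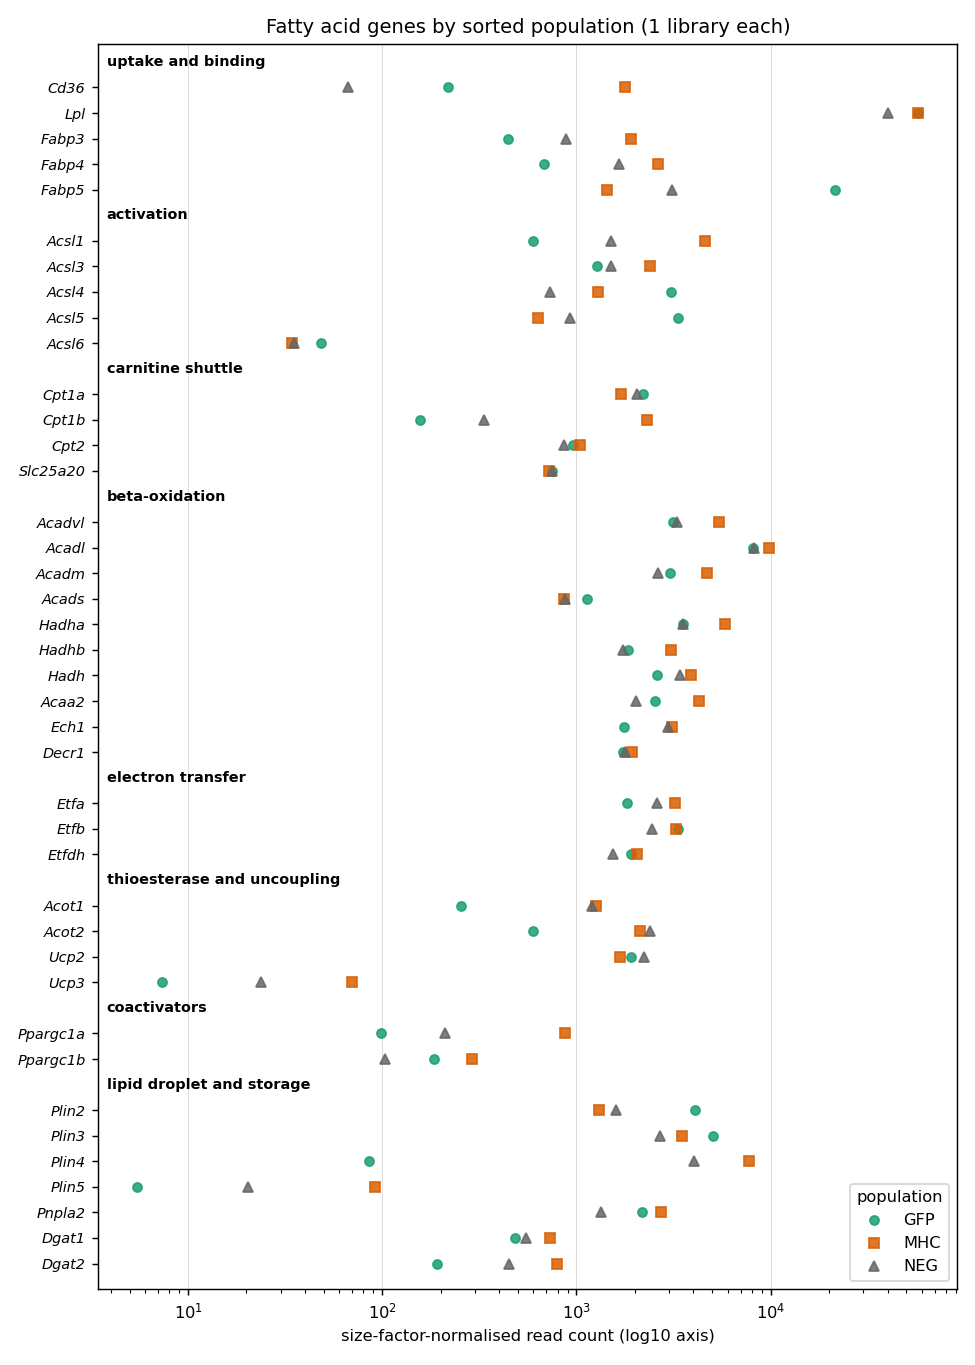
Values of the 40 genes in the 3 libraries, grouped by role. The x axis is the size-factor-normalised read count on a log10 scale, and each point is 1 library (circle GFP, square MHC, triangle NEG). Genes of beta-oxidation lie close together, whereas Fabp5 stands far right in GFP and Plin4 far left. For Lpl the GFP point lies under the MHC point, at 57571 and 57632.

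**Figure D2:**
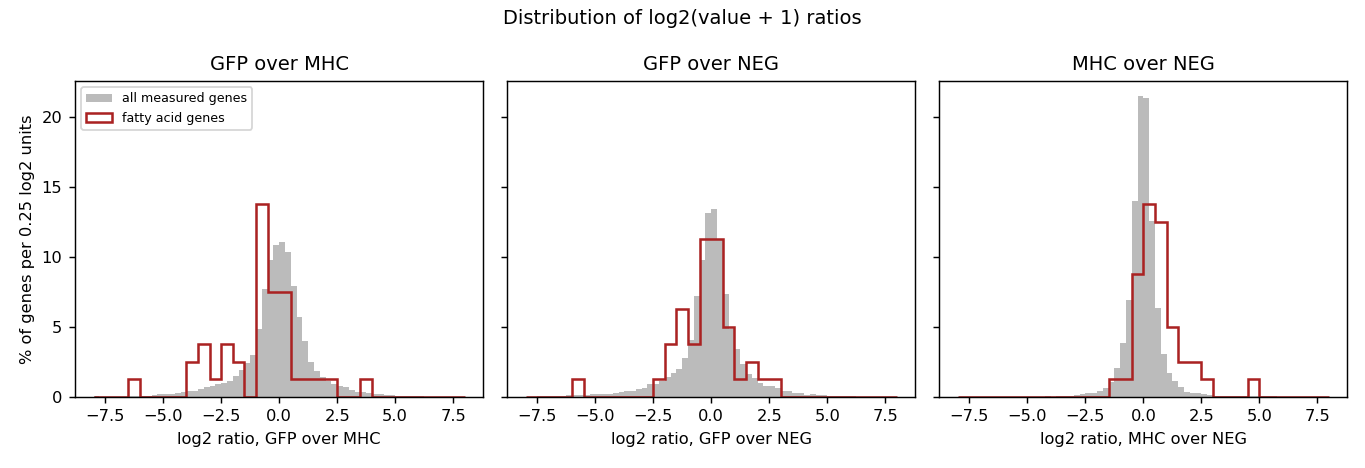
Distribution of log2(value + 1) ratios in the 3 comparisons, as % of genes per 0.25 log2 units. Grey bars are all measured genes and the red outline is the 40 fatty acid genes. The outline has a left shoulder in GFP over MHC (median -0.64) and is shifted right in MHC over NEG (median 0.47).

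Among genes of uptake and intracellular binding, Fabp5 was high in GFP, and Cd36, Fabp3 and Fabp4 were high in MHC. Fabp5 (ENSMUSG00000027533, chr3:10012548-10016607, mm10), which encodes the epidermal fatty acid binding protein, had 21512 (GFP), 1440.3 (MHC) and 3097 (NEG). It was 14.9-fold higher (14.2 to 15.8) in GFP than in MHC and 6.94-fold higher (6.68 to 7.23) than in NEG. By log2 ratio it ranked 229 from the top of 20879 genes in GFP over MHC. In MHC it was 2.15-fold lower (2.02 to 2.29) than in NEG, so NEG stood between the other populations. The mesothelial markers named first in their list, Upk3b with 54258 (GFP), 995 (MHC) and 1368 (NEG) and Upk1b with 40894 (GFP), 1450.5 (MHC) and 1392 (NEG), were also high in GFP, and their part in the high Fabp5 was not tested.

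Cd36 (ENSMUSG00000002944, chr5:17781690-17888959), the gene of a membrane fatty acid transporter, had 218 (GFP), 1777 (MHC) and 66.6 (NEG). MHC was 26.7-fold higher (20.6 to 35.2) than NEG, and GFP was 8.13-fold lower (7.10 to 9.35) than MHC. GFP was 3.28-fold higher (2.46 to 4.44) than NEG, so the levels followed the order MHC, GFP, NEG. In MHC over NEG, Cd36 ranked 40 from the top of 20572 genes.

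Fabp4 (ENSMUSG00000062515, chr3:10204347-10208576), the adipocyte fatty acid binding protein gene, had 683 (GFP), 2645 (MHC) and 1648 (NEG), 3.87-fold lower (3.57 to 4.21) in GFP than in MHC. Against NEG it was 2.41-fold lower in GFP. Fabp3, the heart form, had 446 (GFP), 1915 (MHC) and 885 (NEG) and was 4.29-fold lower (3.89 to 4.75) in GFP than in MHC. The log2 ratio of MHC over NEG was 1.11. Both genes followed the order MHC, NEG, GFP. Fabp3 is uncertain because Zcchc17 overlaps 81 bases of it, with values of 846 (GFP), 804 (MHC) and 854 (NEG), and because 29.2% of its distinct 50-base transcript words also occur in the pseudogene Fabp3-ps1. Zcchc17 itself was nearly level over the 3 libraries.

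Lpl (ENSMUSG00000015568, chr8:68880491-68907448), the gene of lipoprotein lipase, was the most abundant member by read count. Its value was 57571 (GFP), 57632 (MHC) and 39988 (NEG). GFP and MHC differed by less than 2-fold, with a ratio of 0.999 (95% interval 0.988 to 1.01), and each was 1.44-fold the NEG value. Per kilobase of merged exon (GENCODE M21), Fabp5 led the members in GFP with 6031, Lpl led in MHC with 5500.3 and Acadl led in NEG with 4117. The lead of Acadl over Lpl (3816 in NEG) is uncertain. The pseudogene Gm15793 inside Acadl had a value of 6053 in NEG, beside 8254 for Acadl. Lpl had 5494 per kilobase in GFP, near the 6031 of Fabp5. Counts were read as covering whole gene spans, so these figures per exon length do not settle the order of transcript levels between genes.

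The acyl-CoA synthetases, which activate fatty acids, separated by isoform. Acsl1 (ENSMUSG00000018796, chr8:46471041-46536051), the main isoform of heart and fat, had 595 (GFP), 4572 (MHC) and 1515 (NEG) and was 7.68-fold lower (7.08 to 8.35) in GFP than in MHC. It was 2.55-fold lower in GFP than in NEG and 3.02-fold higher in MHC than in NEG. The opposite order was seen for Acsl5 (ENSMUSG00000024981, chr19:55253369-55296627), with 3346 (GFP), 631 (MHC) and 925 (NEG). Acsl5 was 5.30-fold higher (4.87 to 5.78) in GFP than in MHC and 3.62-fold higher than in NEG.

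Acsl4 (ENSMUSG00000031278, chrX:142317993-142390535), which prefers arachidonic acid, had 3064 (GFP), 1286 (MHC) and 733 (NEG). GFP was 2.38-fold higher (2.23 to 2.54) than MHC and 4.18-fold higher than NEG. Acsl3, known for its part in droplet formation, was within 2-fold in each pair at 1274 (GFP), 2379 (MHC) and 1499 (NEG). The brain isoform Acsl6 was low everywhere at 48.4 (GFP), 34.4 (MHC) and 35.0 (NEG), and its intervals spanned equality in each pair. Acsl6 is uncertain because an antisense gene, Gm12224, overlaps it.

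In the carnitine shuttle the muscle isoform of carnitine palmitoyltransferase 1 differed strongly and the other members did not reach 2-fold. Cpt1b (ENSMUSG00000078937, chr15:89416405-89425863) had 156 (GFP), 2308 (MHC) and 334 (NEG), 14.8-fold lower (12.6 to 17.4) in GFP than in MHC. In MHC it was 6.90-fold higher (6.11 to 7.82) than in NEG, and in GFP it was 2.14-fold lower than in NEG. Cpt1b is uncertain because it lies wholly inside the span of Chkb, a choline kinase gene. The Chkb count, which includes these reads, was 1057 (GFP), 3486 (MHC) and 1544 (NEG). Without the Cpt1b count it was 900.4 (GFP), 1178 (MHC) and 1209.8 (NEG), which varied far less than Cpt1b. Of the Cpt1b words of 50 bases, 78.6% also occur in Gm44502. With total-read scaling the difference between GFP and NEG did not reach 2-fold.

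Cpt1a, the liver isoform of the same enzyme, had 2214 (GFP), 1703 (MHC) and 2042 (NEG). Cpt2, the inner membrane transferase, stood at 959.8 (GFP), 1040.2 (MHC) and 864 (NEG). Slc25a20, the carnitine-acylcarnitine carrier, stood at 744 (GFP), 723 (MHC) and 747 (NEG). The ratio of GFP over MHC for these 3 genes ranged between 0.923 and 1.30. In these bulk samples, fewer cells of a type and less RNA per cell cannot be told apart. Myh6, the gene behind the mCherry reporter, had 4694 (GFP), 186924 (MHC) and 3843 (NEG). Beside the lower Cpt1b in GFP, 9 of 10 heart muscle markers were lower in GFP than in MHC and the part of heart muscle content in the result was not tested.

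Enzymes of mitochondrial beta-oxidation rarely reached 2-fold between populations, but most were modestly lower in GFP than in MHC. All 10 were within 2-fold between GFP and MHC, a pair in which 31.9% of all genes passed that limit. Of their log2 ratios, 9 of the 10 were below 0 (median -0.68, range -0.82 to 0.38). The median was -0.64 over the 40 members and 0.01 over all measured genes. With libraries scaled to total reads, 8 of the 10 were below 0. Between GFP and NEG all 10 were again within 2-fold (29.1% of all genes were not), with a median of -0.02. In MHC over NEG the median was 0.48, and the thiolase gene Acaa2 alone passed 2-fold, at 2549 (GFP), 4262 (MHC) and 2022 (NEG) and 2.11-fold higher (1.99 to 2.23) in MHC. Over all genes, 10.6% passed 2-fold in that pair.

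Of the acyl-CoA dehydrogenases, which take the first step for chains of different length, the very long chain gene Acadvl had 3125 (GFP), 5422 (MHC) and 3305 (NEG). The long chain gene Acadl had 8146 (GFP), 9829 (MHC) and 8254 (NEG). The medium chain gene Acadm had 3031 (GFP), 4705 (MHC) and 2643 (NEG), and MHC was the highest library for all 3. The short chain gene Acads differed in its order, with 1129 (GFP), 865 (MHC) and 878 (NEG). Acadvl, which shares 40.5% of its span with Dvl2, and Acadl, which contains the pseudogene Gm15793, are uncertain.

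Hadha and Hadhb encode the alpha and beta subunits of the mitochondrial trifunctional protein and lie head to head on chromosome 5, 85 bases apart. Hadha had 3525 (GFP), 5819 (MHC) and 3557 (NEG) and Hadhb had 1850.1 (GFP), 3081 (MHC) and 1728 (NEG). The ratio of GFP over MHC was 0.606 (95% interval 0.581 to 0.631) for Hadha and 0.600 (0.567 to 0.635) for Hadhb, so these intervals overlap. The region is shown because it holds the Hadha start and most of the gap to Hadhb, whose own start lies just outside it. It is the RefSeq window of Hadha (GRCm38.p6, chr5:30154931-30155230, minus strand, from 250 bases before to 50 after the start), written 5′ to 3′ on the Hadha strand. Capitals mark the 228 bases that the Hadhb window covers on the opposite strand.
Hadha: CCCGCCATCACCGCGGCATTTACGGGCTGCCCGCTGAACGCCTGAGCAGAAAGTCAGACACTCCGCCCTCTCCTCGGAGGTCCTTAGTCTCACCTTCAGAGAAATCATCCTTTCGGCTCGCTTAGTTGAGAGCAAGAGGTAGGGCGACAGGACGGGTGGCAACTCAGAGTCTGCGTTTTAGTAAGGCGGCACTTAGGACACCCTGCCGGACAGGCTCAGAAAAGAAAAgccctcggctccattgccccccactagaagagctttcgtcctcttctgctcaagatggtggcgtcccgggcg
Of Hadhb's distinct 50-base transcript words, 18.1% also occur in Gm13910, so a part of its count is uncertain.

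The remaining enzymes of the cycle were also within 2-fold in each pair. Hadh, the short chain hydroxyacyl-CoA dehydrogenase gene, had 2597 (GFP), 3876 (MHC) and 3421 (NEG). Ech1 and Decr1 prepare unsaturated chains for oxidation, Ech1 with 1754 (GFP), 3097 (MHC) and 2969 (NEG) and Decr1 with 1733 (GFP), 1939.7 (MHC) and 1772 (NEG). The electron transfer flavoprotein genes Etfa and Etfb and the dehydrogenase gene Etfdh, which hand electrons to ubiquinone, were within 2-fold as well. Etfa had 1811 (GFP), 3217 (MHC) and 2605 (NEG), lowest in GFP. Etfb had 3319 (GFP), 3246 (MHC) and 2449 (NEG), and 43.8% of its transcript words recur in Gm45233, so it is uncertain. Etfdh had 1904 (GFP), 2043 (MHC) and 1539.7 (NEG).

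The acyl-CoA thioesterase genes Acot1 and Acot2, which free fatty acids from CoA in the cytosol and the mitochondrion, were low in GFP and within 2-fold between MHC and NEG. Acot1 (ENSMUSG00000072949, chr12:84009502-84017670) had 256 (GFP), 1262 (MHC) and 1199.7 (NEG), 4.93-fold lower (4.33 to 5.63) in GFP than in MHC and 4.69-fold lower than in NEG. Acot2 (ENSMUSG00000021226, chr12:83987861-83993873) had 599.6 (GFP), 2115 (MHC) and 2391 (NEG), 3.53-fold lower (3.23 to 3.86) in GFP than in MHC and 3.99-fold lower than in NEG. These neighbours share sequence: 13.6% of the Acot1 words of 50 bases occur in Acot2 transcripts, and 24.5% of the Acot2 words in Acot1. The split between both genes is therefore uncertain, while both counts were lowest in GFP.

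Of the uncoupling protein genes, Ucp2, expressed in many tissues, was within 2-fold in each pair at 1919.5 (GFP), 1676 (MHC) and 2217 (NEG). The muscle gene Ucp3 (ENSMUSG00000032942, chr7:100472990-100486432) was rare, at 7.31 (GFP), 69.9 (MHC) and 23.7 (NEG), from 8 (GFP), 69 (MHC) and 21 (NEG) reads. It was 9.56-fold lower (4.59 to 23.0) in GFP than in MHC and 2.95-fold higher (1.79 to 5.06) in MHC than in NEG. Ucp3 is uncertain because a lincRNA gene with 405 (GFP), 236 (MHC) and 333 (NEG) overlaps 13.8% of its span. Its lower value in GFP than in NEG (3.24-fold) did not reach 2-fold with a pseudocount of 10. That lincRNA was highest in GFP, where Ucp3 was lowest.

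Ppargc1a (ENSMUSG00000029167, chr5:51454249-51567725), the gene of the coactivator PGC-1 alpha, was also low in GFP and high in MHC. It had 98.7 (GFP), 873 (MHC) and 210.1 (NEG), 8.84-fold lower (7.23 to 10.9) in GFP than in MHC and 4.16-fold higher (3.54 to 4.90) in MHC than in NEG. GFP was 2.13-fold lower than NEG, which did not reach 2-fold with libraries scaled to total reads. The related coactivator gene Ppargc1b had 185 (GFP), 291 (MHC) and 103 (NEG). It was 2.83-fold higher in MHC than in NEG and within 2-fold between GFP and either other library.

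Perilipins, which coat lipid droplets, went in opposite directions. Plin4 (ENSMUSG00000002831, chr17:56100591-56109802), known from fat and muscle, had 85.9 (GFP), 7704 (MHC) and 4012 (NEG). It was 89.7-fold lower (73.2 to 111) in GFP than in MHC and 46.7-fold lower than in NEG, the largest ratios among the 40 members in these pairs. By log2 ratio it ranked 33 from the bottom of 20879 genes in GFP over MHC. MHC and NEG were within 2-fold of each other for Plin4. Plin4 is uncertain by the overlap rule, as 6 of its bases lie in Hdgfrp2, whose values were 1339 (GFP), 2014 (MHC) and 1626 (NEG). Beside it, Cidea, a droplet protein gene, had 5.48 (GFP), 111 (MHC) and 99.4 (NEG). Among the adipocyte markers, Plin1, with 5.48 (GFP), 30.4 (MHC) and 33.9 (NEG), and Pparg, with 11.9 (GFP), 359 (MHC) and 160.4 (NEG), were also lower in GFP than in either other library, while Cidec was higher in GFP, at a log2 ratio of 2.86 over MHC and 1.31 over NEG, and Lipe had 644 (GFP), 572 (MHC) and 298 (NEG). These genes were named after their values were seen, and their part in the Plin4 result was not tested.

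Plin5 (ENSMUSG00000011305, chr17:56111601-56117596), the perilipin of oxidative tissues, lies 1798 bases from Plin4 and was rare. It had 5.48 (GFP), 92.2 (MHC) and 20.3 (NEG), which is 6, 91 and 18 reads in that order of libraries. It was 16.8-fold lower (7.43 to 47.0) in GFP than in MHC and 4.53-fold higher (2.71 to 7.99) in MHC than in NEG. Its lower value in GFP than in NEG, 3.71-fold, rests on few reads and was not counted with a pseudocount of 10 or total-read scaling (95% interval 1.41 to 11.4).

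Plin2 (ENSMUSG00000028494, chr4:86648386-86670060), the perilipin of most cell types, was high in GFP instead, with 4095 (GFP), 1304 (MHC) and 1601 (NEG). GFP was 3.14-fold higher (2.95 to 3.34) than MHC and 2.56-fold higher than NEG. The broadly expressed Plin3 had 5039 (GFP), 3504 (MHC) and 2703 (NEG) and was within 2-fold in each pair. Among enzymes of triglyceride turnover, the lipase gene Pnpla2 (ATGL) had 2164 (GFP), 2729.8 (MHC) and 1336 (NEG), 2.04-fold higher in MHC than in NEG. Dgat1 and Dgat2 encode the enzymes of the last step of triglyceride synthesis. Dgat2 had 192 (GFP), 794 (MHC) and 449.6 (NEG), 4.14-fold lower (3.55 to 4.84) in GFP than in MHC, whereas Dgat1 stayed within 2-fold at 484 (GFP), 731 (MHC) and 552 (NEG).

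**Figure D3:**
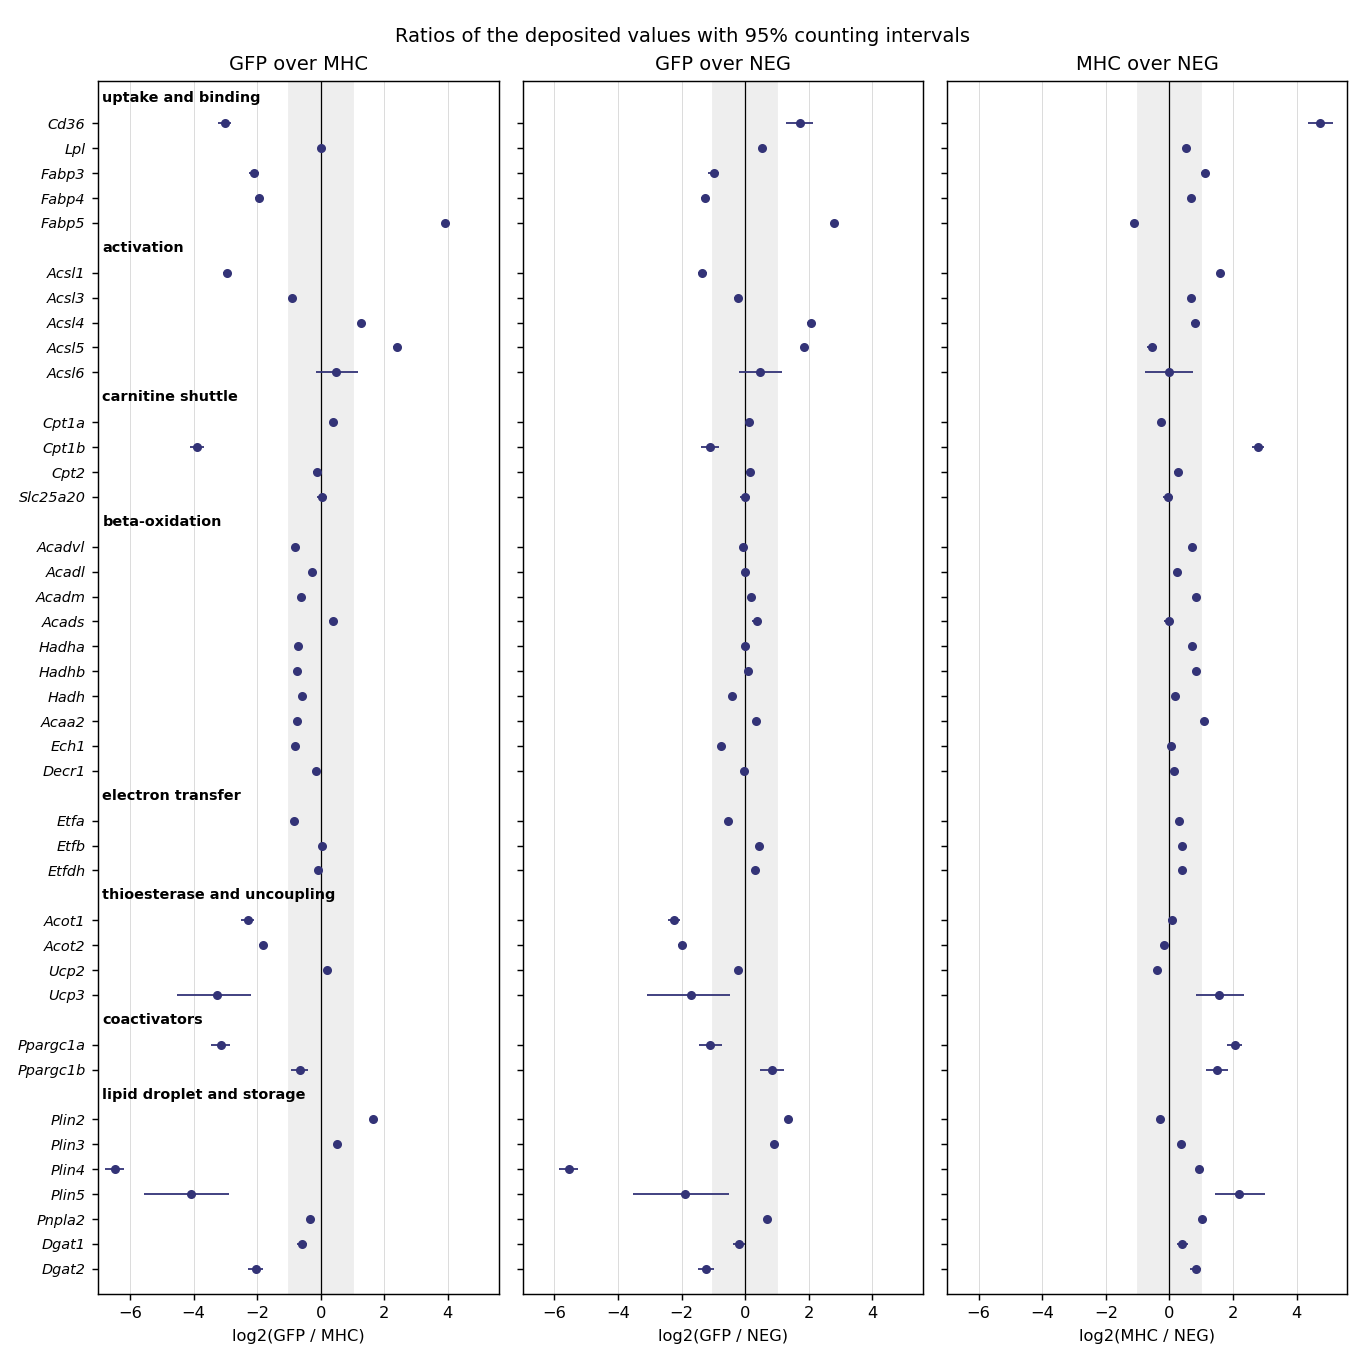
Ratios between populations for the 40 genes, from left to right GFP over MHC, GFP over NEG and MHC over NEG. The x axes are log2 ratios of the deposited values, bars are 95% counting intervals (1 library per population), and grey marks less than 2-fold. In the left panel Plin4, Cpt1b, Plin5 and Cd36 lie far left and Fabp5 far right, and in the right panel Cd36 lies farthest right at 26.7-fold.

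Promoter windows of members that differed between GFP and MHC in opposite directions are shown together, to set the lower genes Cd36, Ucp3, Plin4 and Plin5 beside the higher gene Plin2. Each is a RefSeq window (GRCm38.p6) of 250 bases before to 50 bases after a start, 5′ to 3′ on the gene's strand. Capitals mark AGGTCA or its reverse complement TGACCT, the core motif bound by nuclear receptors. The windows are Cd36 (chr5:17835847-17836146, minus strand), a start inside the gene span of the table, Ucp3 (chr7:100472741-100473040, plus strand), Plin4 (chr17:56109733-56110032, minus strand), Plin5 (chr17:56117499-56117798, minus strand) and Plin2 (chr4:86670010-86670309, minus strand).
Cd36: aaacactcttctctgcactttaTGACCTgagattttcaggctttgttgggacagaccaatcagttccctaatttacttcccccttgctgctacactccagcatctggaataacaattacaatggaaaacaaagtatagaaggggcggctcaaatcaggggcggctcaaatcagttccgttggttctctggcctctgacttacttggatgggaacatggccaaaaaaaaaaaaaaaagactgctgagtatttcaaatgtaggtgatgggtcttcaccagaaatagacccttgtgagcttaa
Ucp3: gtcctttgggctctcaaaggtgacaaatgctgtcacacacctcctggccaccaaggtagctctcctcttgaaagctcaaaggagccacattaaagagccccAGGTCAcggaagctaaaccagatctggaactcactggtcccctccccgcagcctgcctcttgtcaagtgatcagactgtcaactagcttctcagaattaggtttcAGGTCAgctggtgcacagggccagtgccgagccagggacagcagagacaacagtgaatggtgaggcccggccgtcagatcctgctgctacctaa
Plin4: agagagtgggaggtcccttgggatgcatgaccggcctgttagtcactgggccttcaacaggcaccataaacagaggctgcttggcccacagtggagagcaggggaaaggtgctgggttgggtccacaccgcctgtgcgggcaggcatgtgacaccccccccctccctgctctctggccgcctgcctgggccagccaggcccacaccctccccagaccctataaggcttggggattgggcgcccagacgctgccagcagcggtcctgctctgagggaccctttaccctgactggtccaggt
Plin5: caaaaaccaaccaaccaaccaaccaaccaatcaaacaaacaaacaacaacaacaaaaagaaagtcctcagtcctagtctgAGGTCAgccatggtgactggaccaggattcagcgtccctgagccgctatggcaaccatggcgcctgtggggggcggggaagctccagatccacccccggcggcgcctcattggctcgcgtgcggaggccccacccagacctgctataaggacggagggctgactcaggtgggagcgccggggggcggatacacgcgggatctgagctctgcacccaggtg
Plin2: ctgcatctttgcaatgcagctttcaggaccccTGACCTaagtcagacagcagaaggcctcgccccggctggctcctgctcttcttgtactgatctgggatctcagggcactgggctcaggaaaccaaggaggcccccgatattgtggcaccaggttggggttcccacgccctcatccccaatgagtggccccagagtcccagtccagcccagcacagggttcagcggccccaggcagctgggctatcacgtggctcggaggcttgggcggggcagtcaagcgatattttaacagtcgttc
The motif occurred in Ucp3 at 2 places, 149 and 44 bases before the start, in Cd36 at 228 bases, in Plin5 at 170 bases and in Plin2 at 218 bases before it. Plin4 held none in this window. Among the other members called between GFP and MHC, the windows of Fabp3, Acsl1, Acot1, Acot2, Ppargc1a, Acsl4 and Acsl5 held none, so the windows printed hold the motif more often than the called members at large.

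Over the 35 windows of 31 members with an entry that was used, 9 (25.7%) held AGGTCA on either strand, against 16.3% of 32851 windows of all genes. The consensus PPAR response element, a direct repeat of AGGTCA with any 1 base between the copies (either strand), was searched as an exact match only. It was in 0 of the 35 windows and in 0.0396% of all. At that rate 35 windows would rarely hold a match, so the 0 does not show that such elements are absent. TCAAGGTCA, which estrogen-related receptors bind and which also contains AGGTCA, was in 1 window, of Acsl6, and in 0.423% of all. These are matches of letters in a short window and not binding sites. Lpl, Fabp4, Fabp5, Cpt1b, Acaa2, Decr1, Ppargc1b, Dgat1 and Dgat2 were not searched.

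Ratios between related genes within a library do not depend on the scaling between libraries, and gene length drops out when 1 ratio is compared between libraries. The 7 pairs were chosen with earlier results known, and several set a gene that is low in GFP over one that is high there (Fabp5 in 2 of them), so their shared order, highest in MHC and lowest in GFP, follows in part from the choice. Cpt1b reads per Cpt1a read were 0.0706 (0.0601 to 0.0825) in GFP, 1.36 (1.27 to 1.44) in MHC and 0.164 (0.144 to 0.185) in NEG. The muscle isoform thus outnumbered the liver isoform in MHC and not in the other libraries, by reads not corrected for length. Fabp3 per Fabp5 was 0.0207 (0.0189 to 0.0227) in GFP, 1.33 (1.24 to 1.43) in MHC and 0.286 (0.263 to 0.309) in NEG, which is 64.1-fold lower in GFP than in MHC. Fabp4 per Fabp5 was 0.0317 (0.0295 to 0.0341) in GFP, 1.84 (1.72 to 1.96) in MHC and 0.532 (0.499 to 0.567) in NEG.

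Acsl1 per Acsl4 was 0.194 (0.178 to 0.211) in GFP, 3.55 (3.34 to 3.79) in MHC and 2.07 (1.88 to 2.27) in NEG. Ucp3 per Ucp2 was 0.00381 (0.00164 to 0.00752) in GFP, 0.0417 (0.0323 to 0.0531) in MHC and 0.0107 (0.00661 to 0.0164) in NEG. Plin5 per Plin2 was 0.00134 (0.000491 to 0.00292) in GFP, 0.0707 (0.0565 to 0.0875) in MHC and 0.0127 (0.00751 to 0.0202) in NEG. Dgat2 per Dgat1 was 0.396 (GFP), 1.09 (MHC) and 0.814 (NEG), the smallest contrast of the 7. NEG lay between the other populations in each ratio, and the intervals of GFP and NEG overlapped for Ucp3 per Ucp2.

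**Figure D4:**
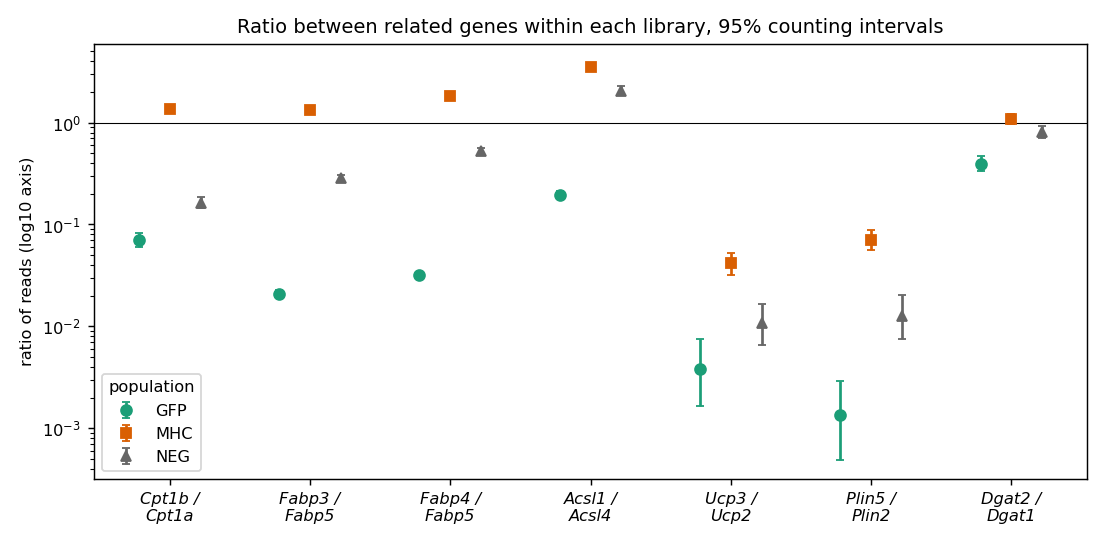
Reads of one gene per read of a related gene in each library, for 7 pairs. The y axis is a log10 scale, points are single libraries (circle GFP, square MHC, triangle NEG) and bars are 95% counting intervals. MHC is above NEG and NEG above GFP in all 7 pairs.

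Members that are neighbours in the genome did not always share an order of libraries. Fabp5 and Fabp4 lie 188 kb apart on chromosome 3, and Fabp5 was highest in GFP while Fabp4 was lowest there. Ucp3 and Ucp2 lie 6904 bases apart on chromosome 7, and of these Ucp3 alone differed by 2-fold. On chromosome 17, Plin4 and Plin5 were both lowest in GFP, whereas Plin3, 161 kb from Plin5, was highest in GFP. Acot1 and Acot2 were both lower in GFP, and Hadha and Hadhb were within 2-fold in each pair of libraries.

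A further 92 genes of fatty acid metabolism were listed beside the 40, in 7 lists. Of 85 measured between GFP and MHC, 10 were higher in GFP and 22 lower (37.6% in either direction beside the background of 31.9%), with a median log2 ratio of -0.17. Between GFP and NEG, 10 were higher and 16 lower of 85, and between MHC and NEG, 7 were higher and 1 lower of 84. In either direction these are 30.6% and 9.52%, near the 29.1% and 10.6% of all measured genes. The directions were not even. In GFP over MHC, 11.8% were higher and 25.9% lower, beside 15.6% and 16.4% of all genes. In GFP over NEG, 11.8% were higher and 18.8% lower, beside 14.1% and 15%. In MHC over NEG, 8.33% were higher and 1.19% lower, beside 5.35% and 5.21%.

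The listed regulators held no gene that was higher in GFP. Of 17 measured, 9 were lower in GFP than in MHC and 0 were higher, that is 52.9% and 0% beside a background of 16.4% and 15.6% (median log2 ratio -1.03). The nuclear receptor gene Pparg, the regulator of fat storage, had 11.9 (GFP), 359 (MHC) and 160.4 (NEG), 30.2-fold lower (17.4 to 57.2) in GFP than in MHC. Pparg was under 20 in GFP, so any call for it against GFP had to be a lower one. Ppara, the receptor gene tied to oxidation in heart and liver, had 95.1 (GFP), 250.2 (MHC) and 96.0 (NEG), 2.63-fold lower in GFP than in MHC. Ppard had 1979 (GFP), 2536 (MHC) and 3111 (NEG) and was within 2-fold in each pair. Pdk4, whose kinase limits glucose oxidation, had 371 (GFP), 3988 (MHC) and 909 (NEG), 10.7-fold lower (9.70 to 11.9) in GFP than in MHC and 4.39-fold higher in MHC than in NEG. Esrra and Nrf1 had the highest ratios of the list, with log2 values of 0.28 and -0.02, and Esrra is uncertain because of an overlapping gene.

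Mitochondrial and peroxisomal oxidation genes outside the 40 were nearly all within 2-fold between GFP and MHC, a pair in which 31.9% of all measured genes were not. All 11 mitochondrial genes were within 2-fold between GFP and MHC, from Acot13 at a log2 ratio of -0.55 and Eci2 at -0.52 to Hsd17b10 at 0.23 and Crat at 0.48. Of 12 peroxisomal genes, the transporter gene Abcd2 alone differed, with 23.8 (GFP), 145 (MHC) and 148 (NEG), while Acaa1a (-0.34), Pex5 (0.63) and Acox3 (0.90) were within 2-fold. Eci2 and Acaa1a are uncertain by overlap. Among ketone body genes, the dehydrogenase gene Bdh1 was 10.7-fold higher (7.74 to 15.0) in GFP than in MHC, with 442 (GFP), 41.5 (MHC) and 57.6 (NEG). Oxct1, whose enzyme starts the use of ketone bodies, was within 2-fold at a log2 ratio of -0.17.

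Transport genes outside the 40 were higher in GFP for 5 and lower for 3 of 12 measured, or 41.7% and 25% beside 15.6% and 16.4% of all genes. Dbi, the acyl-CoA binding protein gene, had 8415 (GFP), 1898 (MHC) and 1993 (NEG), 4.43-fold higher (4.22 to 4.66) in GFP than in MHC. The transport protein gene Slc27a6 was 5.91-fold higher, with 119.7 (GFP), 20.3 (MHC) and 85.9 (NEG). Vldlr, the receptor gene for very low density lipoprotein, was 3.36-fold lower and Slc27a3 2.55-fold lower.

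Other droplet and glycerolipid genes were higher in GFP for 3 and lower for 7 of 18 measured. The share higher, 16.7%, is near the 15.6% of all genes, and the share lower was 38.9% beside 16.4%. G0s2, an inhibitor of the lipase encoded by Pnpla2, had 171 (GFP), 1764 (MHC) and 1698 (NEG), 10.3-fold lower (8.87 to 12.1) in GFP than in MHC. Cidea was 20.3-fold lower and is uncertain by overlap, and at under 20 in GFP it could be called only lower. Abhd5, the activator of the same lipase, had 3677 (GFP), 1381 (MHC) and 1431 (NEG) and was 2.66-fold higher in GFP than in MHC. Gpam, an acyltransferase gene of triglyceride synthesis, was 3.16-fold higher. In these libraries the inhibitor was thus low and the activator high in GFP.

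Fatty acid synthesis genes were within 2-fold between GFP and MHC for 9 of 11, with a median log2 ratio of 0.34. Past 2-fold in that pair were 18.2% of the list, beside 31.9% of all measured genes. The elongase gene Elovl6 was 12.2-fold higher (10.4 to 14.3) in GFP than in MHC, with 2048 (GFP), 168 (MHC) and 314 (NEG). Acly had a log2 ratio of 0.96 and Srebf1, uncertain by overlap, of -0.53. The malic enzyme gene Me1 was 2.28-fold lower in GFP.

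**Figure D5:**
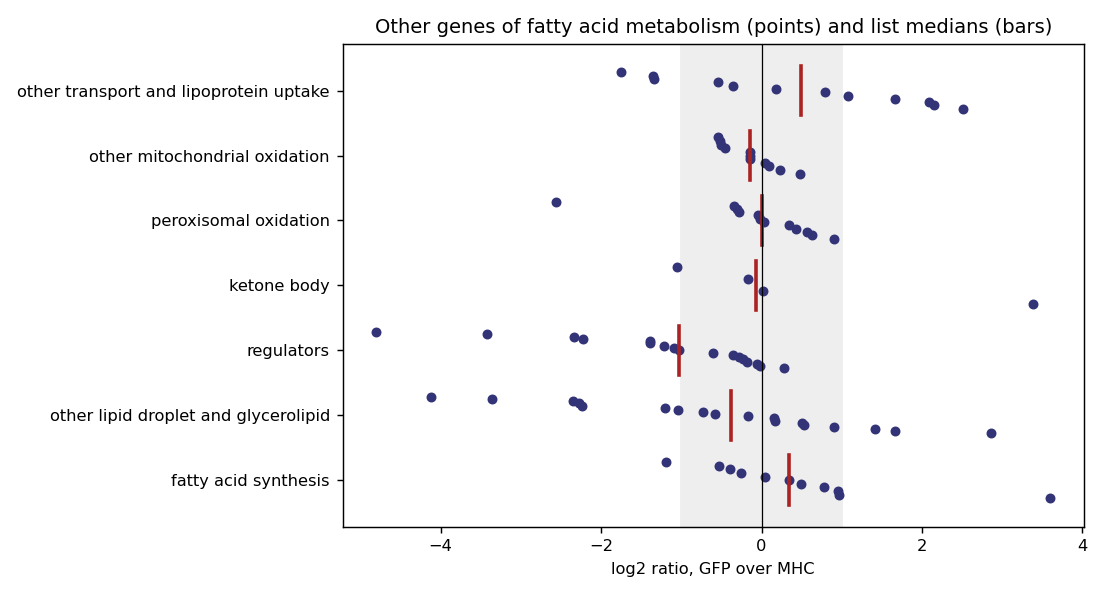
Log2 ratios of GFP over MHC for the measured genes of 7 further lists of fatty acid metabolism (points) with each list's median (red bar). Grey marks less than 2-fold. The regulator list has its median at -1.03 with no gene past 2-fold on the higher side, and all 11 mitochondrial oxidation genes lie in the grey band.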

How the data were processed

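RNA of 3 sorted populations was measured, with 1 library each, by single-end sequencing of 50 bases, per the labels' protocols. The build was mm10, and the tools listed were DESeq2 (1.2.10), STAR (2.3.0e), FastQC (0.11.2) and bedtools (2.17.0), per the submitters' processing notes. What each tool did is not given in the sources used. The authors deposited normalised counts (signal): for each gene, reads over the size factor of its library. Each value was a whole multiple of the smallest in its library (100% within 0.01), so whole reads were recovered.

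Log2 ratios, their medians and ranks, and the calls used a pseudocount of 1, which understates the differences of low genes, while folds and their intervals are ratios of the values with no pseudocount. With 1 library per population no residual degrees of freedom exist, so no count model was fitted and edgeR 4.0.16 gave TMM scaling factors only. A gene overlapped by another with at least 25% of its reads is called uncertain. Of 1776 pairs of a gene with 300 or more reads wholly inside another, the outer count was at or above the inner one in 99.8%, so counts were read as covering whole gene spans. Shared words of 50 bases were counted in GENCODE M21 transcripts. Whether reads mapping to several places were counted is not stated in the labels. Python 3.11.15 with scipy 1.17.1 was used.

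The members and lists were chosen with earlier results of these data known. All 40 members are named. Of each of the 7 other lists, the 2 highest and 2 lowest ratios of GFP over MHC with a value of 100 or more are named, with Ppara, Ppard and Pparg, apart from some genes that are not reported here. The first 2 genes of each marker list could be named, and any other marker was named after its values were seen. Without molecular identifiers, reads can be copies of 1 molecule. The alternatives were other scalings, pseudocounts, filters and folds.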

Additional observations from a re-analysis of the deposited data

How the results depend on the processing

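No member past 2-fold changed sign under TMM or total-read scaling or pseudocounts of 10 and 0.1. These settings shift ratios too little to reverse a 2-fold difference, so this outcome was fixed in advance. The other alternatives were a mean of 100 or more, no filter, no overlapped genes and a 1.5-fold limit, which leave each ratio as it is. The members' median log2 ratio of GFP over NEG, -0.02 at first, changed sign with total-read scaling. Of 480 recomputed member ratios (scalings and pseudocounts), 8 changed their call, all between GFP and NEG: Fabp3 (TMM), Plin5, Plin3, Ppargc1a, Ppargc1b and Cpt1b (total reads), and Plin5 and Ucp3 (pseudocount 10). Total-read scaling moved the median log2 ratio of all measured genes to 0.19 in both GFP over MHC and GFP over NEG, and that of the members to -0.48 and 0.15. At 1.5-fold, 22 of the 40 members were lower in GFP than in MHC, beside 26.1% of all measured genes. Against NEG, 8 were higher in GFP (23.5% of all genes) and 19 higher in MHC (12.2%). Of 85 other fatty acid genes, 17 were then higher in GFP than in MHC (26.2% of all genes). In GFP over NEG, 17 of 85 were higher (23.5%). In MHC over NEG, 15 of 84 were higher (12.2%) and 5 lower (13%). The last count was 0 at a mean of 100 or more and 4 with no filter, against 1 in the main setting. The shares of all genes were 3.37%, 10% and 5.21% in that order. Depth limits Ucp3, Plin5 and Acsl6, whose counts were low. No paired analysis was possible because each population has 1 library.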
